A study of Mus musculus with 18 samples.

Results

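D-type cyclins and the inhibitors of cyclin-dependent kinases (CDKs) were followed in NIH 3T3 cells, a line of mouse embryonic fibroblasts. The 10 genes were taken by symbol from a table of 22019 genes: the D-type cyclins Ccnd1, Ccnd2 and Ccnd3, the CIP/KIP inhibitors Cdkn1a, Cdkn1b and Cdkn1c, and the INK4 inhibitors Cdkn2a, Cdkn2b, Cdkn2c and Cdkn2d. Messenger RNA was sequenced in 18 libraries, which keep their serial numbers here. All cells carried a Tet-ON 3G system with a doxycycline-inducible construct and were kept for 48 hr on fibronectin-coated gels with 1 μg/ml doxycycline, the controls included. In all libraries but library 34, the construct coded for SUN1L, a dominant-negative lumenal domain of SUN1 that disrupts the LINC complex between nucleus and cytoskeleton, or for its control KDEL, in which GFP carries the signal that holds it in the endoplasmic reticulum.

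SUN1L cells on 1 kPa gels ("soft") were libraries 3, 15 and 27, and SUN1L cells on 308 kPa gels ("stiff") were libraries 7, 19 and 31. KDEL cells on 1 kPa were libraries 4, 16 and 28, and KDEL cells on 308 kPa were libraries 8, 20 and 32. KDEL cells on 308 kPa with 25 μM Y27632 (Y27), an inhibitor of the kinase ROCK, were libraries 12, 24 and 36. KDEL cells on 308 kPa with 10 μM blebbistatin, an inhibitor of myosin II, were libraries 10 and 22. Library 34, on 308 kPa, stayed outside all groups: its labels give an empty vector in place of KDEL and name both inhibitors. The cells were transduced with retrovirus and selected with puromycin, and KDEL cells alone are described as sorted by fluorescence afterwards. The methods state biological replicates.

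Values are normalized signal, in which 1 read pair was worth 1.70 to 2.49 units and no value is below 1. The libraries held an estimated 12670000 to 19460000 read pairs. All 8 fibroblast markers were far above 1 in all 18 libraries, from 1132 for Thy1 to 477570 for Fn1. Of the markers of other cells, Epcam was at most 2.49, Ptprc at most 11.7 and Krt18 and Cd3e at 1 throughout. Cdh1 (88.0 to 311), Krt14 (up to 872), Cd68 (58.7 to 304), Csf1r (up to 277) and the endothelial receptor Tek (72.3 to 3928) were above 1 in all libraries. Libraries 3, 7 and 8 stand apart from the rest: the mean log2(signal + 1) of 20 G2/M genes was 8.60, 8.86 and 9.19 there and 11.48 to 12.25 in the other 15 libraries, and for 20 S phase genes it was 9.37 to 9.74 there and 11.29 to 11.94 elsewhere. Each group of the construct and rigidity design other than KDEL on 1 kPa holds 1 of these libraries, so values without these 3 libraries are given beside those that they move.

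D-type cyclins bind and activate CDK4 and CDK6 in response to mitogens and adhesion, and the active kinases phosphorylate the retinoblastoma protein, which frees E2F factors to switch on the genes of S phase. INK4 proteins bind CDK4 and CDK6 and keep cyclin D away, and CIP/KIP proteins bind cyclin and CDK complexes more broadly. In fibroblasts this step links growth factors, cell spreading and cytoskeletal tension to the decision to divide. The Cdkn2a locus codes for p16INK4a and p19ARF from different first exons and is known to be deleted in NIH 3T3 cells.

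Of the 10 genes, 7 were measured above the lowest value in all 18 libraries and 3 in none. Cdkn2a (p16INK4a and p19ARF), on chromosome 4 at 89274471 to 89294653 on the minus strand (GRCm38, the build of the gene positions in the table), was at the lowest value of 1 in all 18 libraries. Cdkn2b (p15INK4b), which starts 31.8 kb from it, and Cdkn1c (p57KIP2), on chromosome 7 at 143458350 to 143461050, were likewise at 1 in every library. The value of 1 is less than 1 read pair, and a count of 0 allows up to 3 read pairs, which is 5.11 to 7.46 signal units, for counting error only. So no Cdkn2a messenger RNA was detected in this line under any of the conditions, and a change in these 3 genes was not detectable at this depth. By contrast, 8 housekeeping genes were all at 1610 or more. A value of 1 was not particular to these 3 genes, since 7006 to 7753 genes of each library had it. Among other genes of the cell cycle, Pmaip1 was at 1 in all 18 libraries and E2f6 in all but library 32 (1.96). Whether read filters or annotation hold such genes at 1 was not tested.

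The silent stretch around Cdkn2a is bounded by an expressed gene. Mtap, the enzyme of methionine salvage whose row starts 137.3 kb before that of Cdkn2a, had a median of 24260 and a range of 16120 to 31500. On the other side, Dmrta1 (405.0 kb away) was above 1 in 2 libraries with at most 2.15, and Elavl2 (1976.3 kb away) had a median of 299.8. Beyond Mtap, 432.6 to 458.2 kb before Cdkn2a, the interferon genes Ifna4, Ifna5, Ifna7 and Ifna11 were at 1 in all libraries. Near them, Ifna1 was above 1 in 3 libraries, Ifna6 in 1 and Ifne in 15, with at most 5.63 units. The table holds RNA values, so a deleted and a silent Cdkn2a cannot be told apart from it.

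**Figure D1:**
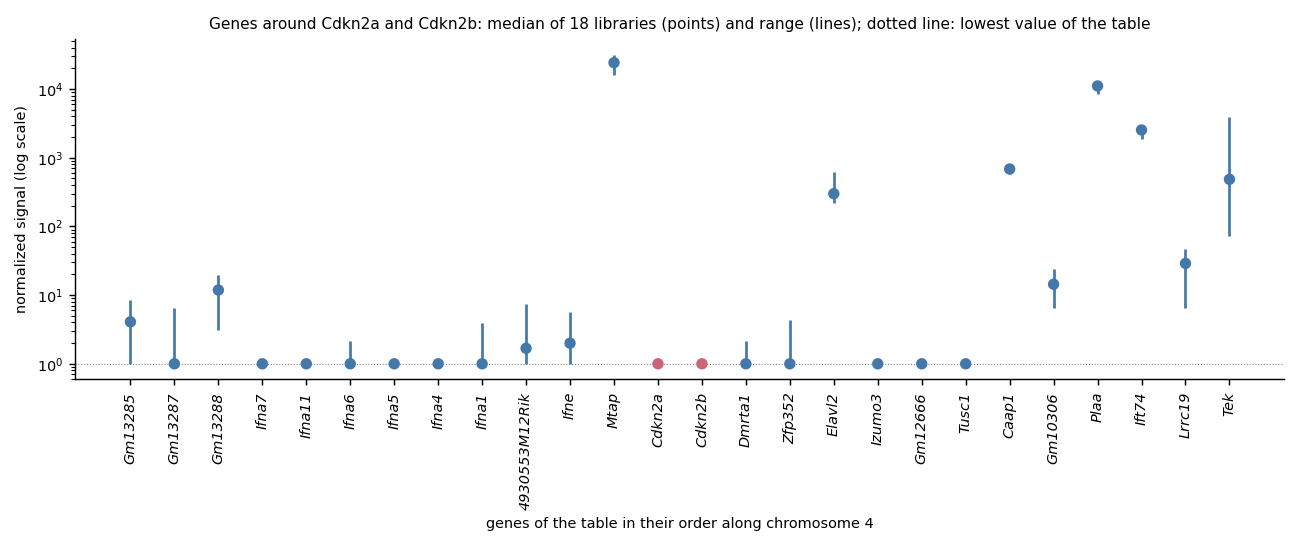
Normalized signal on a log axis for 26 genes of the table in their order along chromosome 4 around Cdkn2a and Cdkn2b. Points are medians of 18 libraries and lines reach from the lowest to the highest library; Cdkn2a and Cdkn2b lie on the lowest value of 1, beside Mtap with a median of 24260.

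Per kb of annotated exon, which allows genes to be compared, the order of mean signal over the 18 libraries was Cdkn1a, Ccnd1, Ccnd2, Ccnd3, Cdkn2c, Cdkn1b and Cdkn2d. Cdkn1a (p21, which p53 induces) had 6057 ± 2292 units per kb (SD, n = 18), Ccnd1 had 3975 ± 1131 and Ccnd2 had 3622.5 ± 624. Ccnd3 had 1265 ± 295, Cdkn2c (p18INK4c) had 711 ± 244, Cdkn1b (p27, which restrains cyclin E with CDK2) had 459.7 ± 81.7 and Cdkn2d (p19INK4d) had 267 ± 91.6. In this order 5 of 6 neighbours overlapped in their ranges across libraries, and only Ccnd2 and Ccnd3 did not. Such ranges do not compare 2 genes within the same library, and the order within libraries was not tested. Over all 18 libraries the signal of Cdkn2c spanned 5.20-fold, that of Cdkn2d 4.24-fold and that of Cdkn1a 3.43-fold. In the 15 libraries other than 3, 7 and 8, taken alone after the data were seen, the order changed: Cdkn1a spanned 2.56-fold, Ccnd1 2.37-fold, Cdkn2c 1.96-fold and Cdkn2d 1.61-fold. Cdkn1b (1.87-fold) and Ccnd2 (1.90-fold) had the same span in both.

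**Figure D2:**
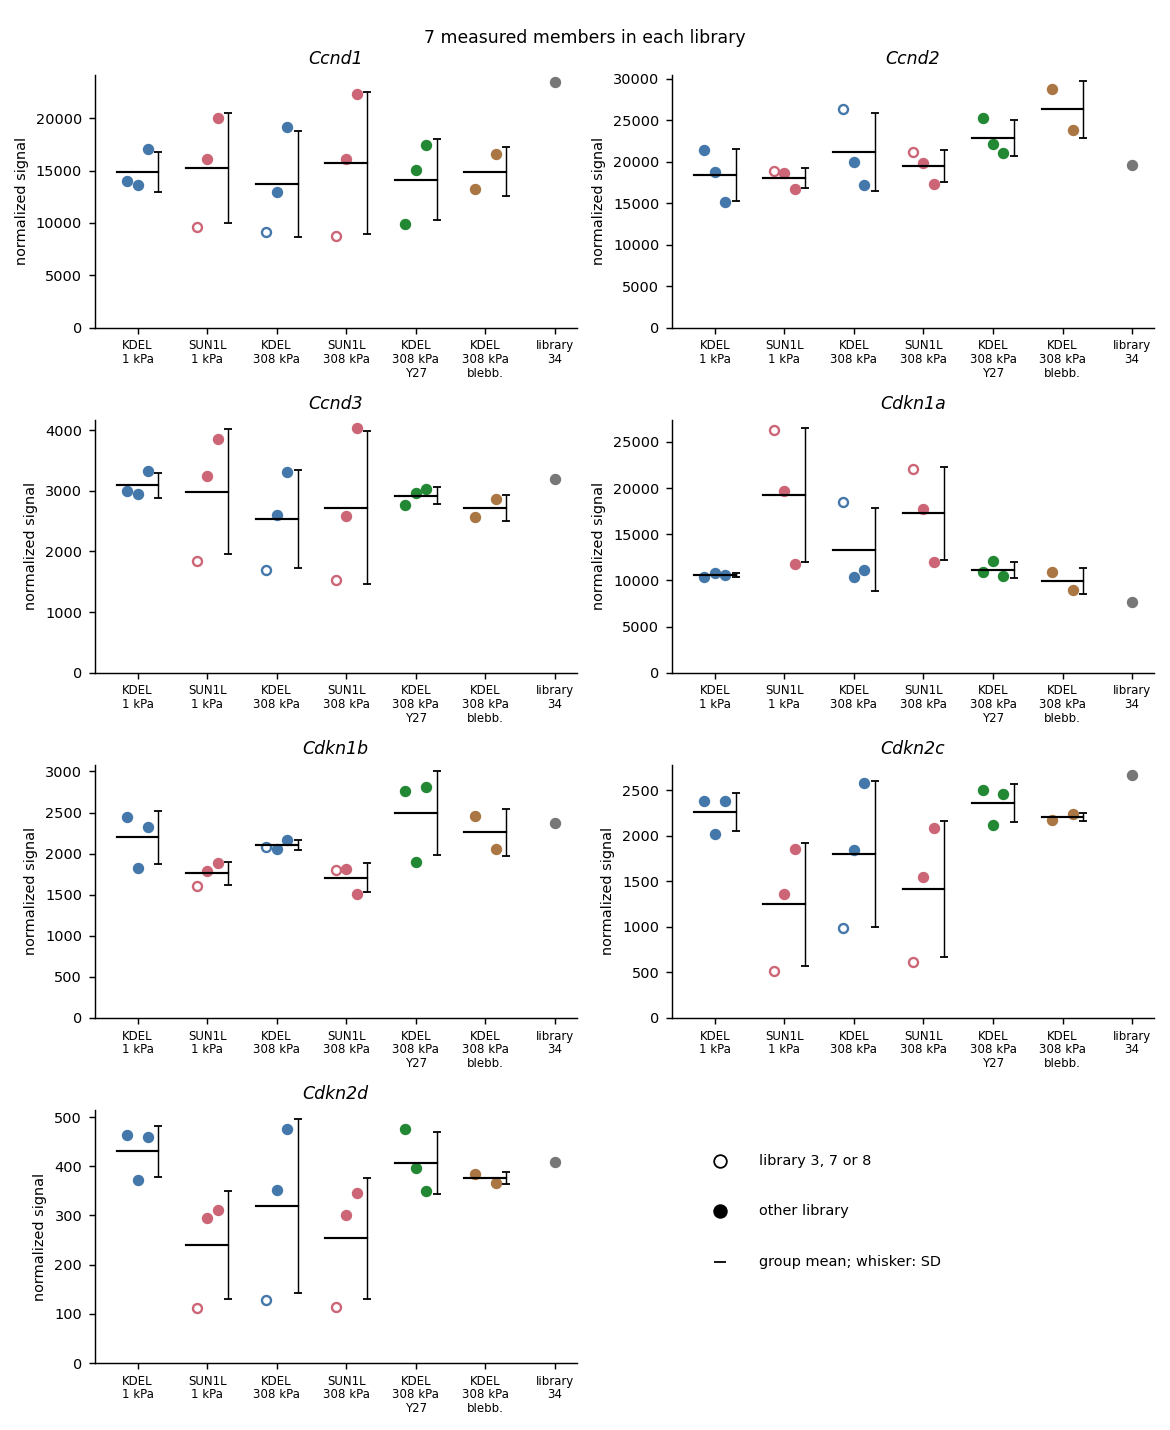
Normalized signal of the 7 measured genes in each library, by group, on linear axes from 0. Open circles are libraries 3, 7 and 8, horizontal bars are group means and whiskers are 1 SD; in each of Ccnd1, Ccnd3, Cdkn2c and Cdkn2d the open circle is the lowest point of its group, and in Cdkn1a and Ccnd2 the highest (26261 for Cdkn1a in library 3).

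Cdkn2c and Cdkn2d are the INK4 inhibitors that this line expresses, and they moved together across libraries. Their promoters in RefSeq (GRCm38.p6, 250 bases before to 50 after the start) were searched on both strands for letters bound by E2F, since E2F drives S phase genes. Promoters were given for 7 of the 10 genes, as 11 windows. The 8-letter E2F sites TTTCCCGC, TTTGGCGC, TTTGCCGC and TTTCGCGC were in neither gene. Of these, TTTCCCGC was in 1 window of Cdkn2a, which was not detected here, and 1.07% of 32851 promoters hold it. The shorter GGCGGGA, chosen after the sequences were read, was in 1 window each of Cdkn2c and Cdkn2d. It was in no window of the other 5 genes, and 11.34% of the promoters hold it. GGCGGGA can overlap the GC box GGGCGG, which 35.66% of all promoters and 9 of the 11 windows hold. In the stretches printed below, the letter before GGCGGGA is A in both genes, so no GGGCGG overlaps it there. The following 60 bases on the minus strand show these stretches, with GGCGGGA in capitals, beginning 153 bases before the start site in Cdkn2c (chr4:109666876-109666935) and 200 bases before it in Cdkn2d (chr9:21291376-21291435).
Cdkn2c: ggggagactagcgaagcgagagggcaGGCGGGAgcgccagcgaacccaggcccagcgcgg
Cdkn2d: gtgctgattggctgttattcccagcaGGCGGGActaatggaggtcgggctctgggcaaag
A match is a description of these letters, and no binding was measured.

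Whether LINC disruption changed these genes was asked first on the soft gel. Cdkn1a was higher in SUN1L cells, and Cdkn1b, Cdkn2c and Cdkn2d were lower, but no gene of the set passed the test across all genes (adjusted p under 0.05 by limma and at least 2-fold), which 0.0874% of 16021 genes did. Cdkn1a had 26261, 19640 and 11826 units in SUN1L libraries 3, 15 and 27, and 10392, 10816 and 10607 in KDEL libraries 4, 16 and 28. The groups did not overlap, and the SUN1L libraries spread 2.22-fold while the KDEL libraries lay within a narrow band. The log2 difference was 0.78 (SE 0.32, 95% interval 0.08 to 1.49, unadjusted p = 0.0323, limma adjusted p = 0.93).

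Cdkn2c had 514, 1367 and 1858 units in the SUN1L libraries against 2381, 2024 and 2386 in the KDEL libraries. All 3 SUN1L libraries lay below all 3 KDEL libraries, with a log2 difference of -1.05 (SE 0.54, 95% interval -2.24 to 0.15, limma adjusted p = 0.93). Cdkn2d behaved alike, with 112, 296 and 312 units against 463, 371 and 459 and a log2 difference of -0.97 (SE 0.57, 95% interval -2.23 to 0.28, limma adjusted p = 0.93). Beside these counts, 14.5% of the tested genes did not overlap between the groups.

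Cdkn1b had 1603, 1794 and 1883 units in SUN1L cells on 1 kPa and 2447, 1828 and 2318 in KDEL cells. Here the lowest KDEL library lay within the SUN1L range, and the log2 difference was -0.31 (SE 0.13, unadjusted p = 0.0377, limma adjusted p = 0.93). Cdkn1a and Cdkn1b were thus 2 of 7 genes at an unadjusted p under 0.05, where 4.54% of all tested genes were. The 3 cyclins were within their spread: log2 differences were -0.02 for Ccnd1 (95% interval -0.86 to 0.82), -0.02 for Ccnd2 (-0.43 to 0.39) and -0.11 for Ccnd3 (-0.93 to 0.70). These intervals leave room for changes of over 1.5-fold in Ccnd1 and Ccnd3.

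Without libraries 3, 7 and 8 the differences on 1 kPa were smaller in all 4 inhibitors. Cdkn1a then differed by 0.52 on the log2 scale (SE 0.24, unadjusted p = 0.0626, limma adjusted p = 1) and Cdkn1b by -0.25 (SE 0.15, unadjusted p = 0.133, limma adjusted p = 1). Cdkn2c differed by -0.50 (SE 0.21, unadjusted p = 0.0485, limma adjusted p = 1) and Cdkn2d by -0.50 (SE 0.18, unadjusted p = 0.029, limma adjusted p = 0.929). The 2 of 7 genes at an unadjusted p under 0.05 were thus Cdkn2c and Cdkn2d in place of Cdkn1a and Cdkn1b. In this fit 788 of 16021 tested genes had such a p by limma. SUN1L libraries 15 and 27 were below all 3 KDEL libraries in both genes, which already follows from the lack of overlap given above. Ccnd1 and Ccnd3 then differed by 0.28 (SE 0.23) and 0.20 (SE 0.20), with the sign turned. The low G2/M level of library 3 moves with these values, and its part in the result was not tested. In RNA of whole cultures, fewer cells in a phase and less RNA per cell cannot be told apart.

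On the stiff gel the means of the 4 inhibitors differed in the same directions as on the soft gel, by no more than there. No gene of the set was called, against 0.0624% of all tested genes. Cdkn1b had 1803, 1815 and 1505 units in SUN1L libraries 7, 19 and 31, and 2081, 2057 and 2170 in KDEL libraries 8, 20 and 32. These groups did not overlap, as was so for 4.29% of tested genes. The log2 difference was -0.30 (SE 0.13, 95% interval -0.60 to -0.01, unadjusted p = 0.0417, limma adjusted p = 1), and -0.35 without libraries 3, 7 and 8. It was the only gene of the 7 at an unadjusted p under 0.05, and 2.53% of tested genes were.

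Cdkn1a had 22033, 17731 and 12038 units in SUN1L cells on 308 kPa and 18510, 10388 and 11091 in KDEL cells. The highest KDEL value is that of library 8, and the groups overlapped through it. The log2 difference was 0.38 (SE 0.32, limma adjusted p = 1), and 0.44 without libraries 3, 7 and 8. Cdkn2c had 616, 1549 and 2090 units against 983, 1843 and 2579, and Cdkn2d had 114, 300 and 346 against 128, 352 and 476. Both overlapped, with log2 differences of -0.41 (SE 0.54) and -0.28 (SE 0.57), and over the alternatives these took both signs (-0.79 to 0.11 and -0.84 to 0.21). The cyclins differed by 0.16 (Ccnd1), -0.10 (Ccnd2) and 0.05 (Ccnd3) on the log2 scale, each within 1 SE.

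**Figure D3:**
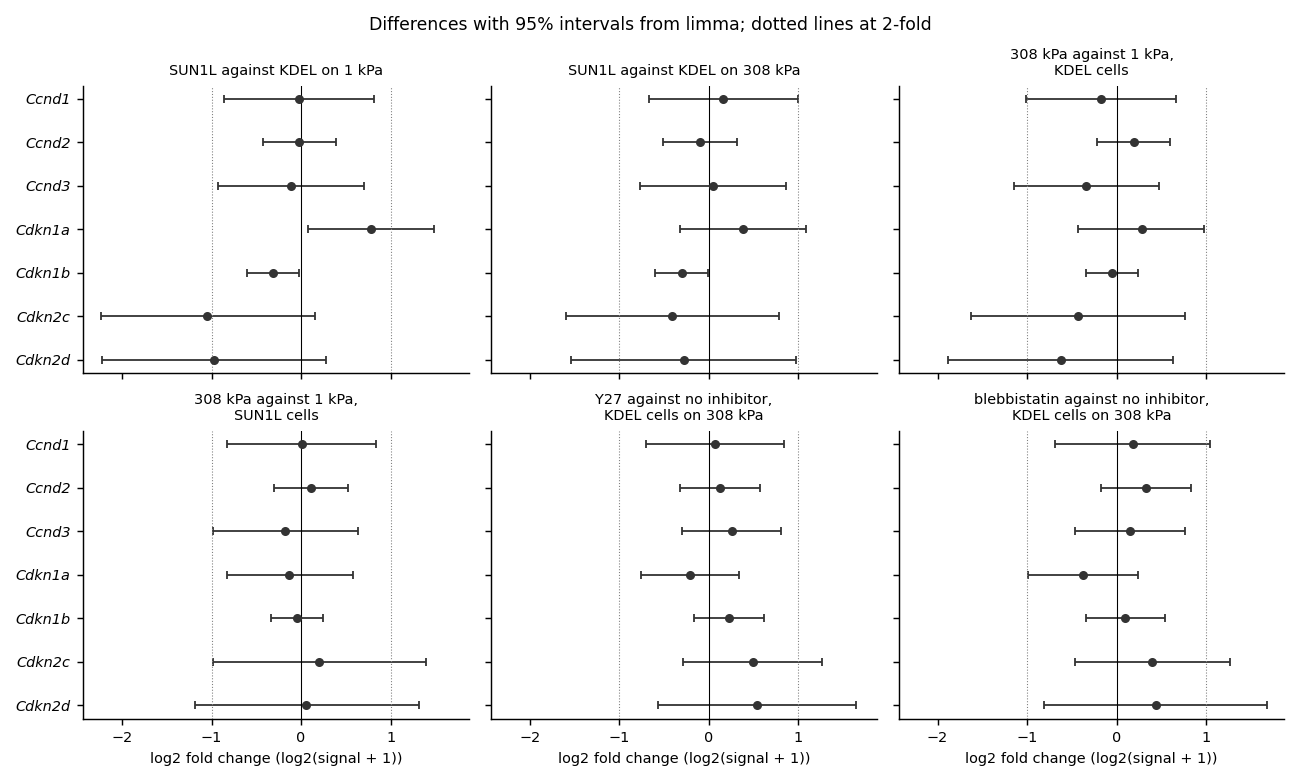
Log2 fold changes (horizontal axis, on the log2(signal + 1) scale) of the 7 measured genes in 6 comparisons, with 95% intervals from limma and dotted lines at 2-fold. On 1 kPa the intervals of Cdkn1a (0.08 to 1.49) and Cdkn1b lie to one side of 0, and on 308 kPa that of Cdkn1b does; all others span 0.

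Rigidity was compared within each cell type. In KDEL cells, 308 kPa against 1 kPa, 0 of the 7 genes were called by limma and 0 had an unadjusted p under 0.05; among all genes 0% were called and 1.37% had such a p. The largest differences were those of Cdkn2d (-0.62 on the log2 scale, SE 0.57) and Cdkn2c (-0.43, SE 0.54), whose values on 308 kPa include the 128 and 983 units of library 8. Without libraries 3, 7 and 8 they were -0.07 (SE 0.18) and -0.05 (SE 0.21). In SUN1L cells, 0 of 7 genes were called and 0 had an unadjusted p under 0.05 by limma, against 0% and 1.93% of all genes. The log2 differences there lay between -0.18 for Ccnd3 (SE 0.37) and 0.20 for Cdkn2c (SE 0.54), and without those libraries between -0.15 for Cdkn1b and 0.18 for Cdkn2c.

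Whether rigidity altered the response to SUN1L was tested as the interaction of construct and rigidity. None of the 7 genes was called by limma at a Bonferroni-corrected p under 0.05, and 0% of all genes were. At an unadjusted p under 0.05 there were 0 of 7 genes and 0.905% of all genes. The interaction term was 0.69 for Cdkn2d (SE 0.80), 0.64 for Cdkn2c (SE 0.76) and -0.40 for Cdkn1a (SE 0.45) on the log2 scale, and 0.15, 0.22 and -0.08 without libraries 3, 7 and 8. The smaller differences of these 3 genes on 308 kPa were thus within the error of that comparison.

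The inhibitors of ROCK and myosin II were compared with untreated KDEL cells on 308 kPa, a group they share as control. With Y27, 0 of 7 genes were called, as were 0% of all genes, and 0 of 7 had an unadjusted p under 0.05, against 5.8% of all genes by limma. Cdkn2c had 2502, 2117 and 2461 units in Y27 libraries 12, 24 and 36 (log2 difference 0.49, SE 0.33, limma adjusted p = 0.854). Cdkn2d had 475, 397 and 351 units (0.54, SE 0.46), and Cdkn1b had 2766, 1903 and 2812 units (0.22, SE 0.17). All 3 overlapped with the untreated libraries, and without library 8 the differences were 0.11 for Cdkn2c, -0.02 for Cdkn2d and 0.22 for Cdkn1b. Cdkn1a had 10899, 12098 and 10454 units, 0.21 lower on the log2 scale in mean but with a 95% interval of -0.76 to 0.34, and without library 8 the difference was 0.05.

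With blebbistatin, 0 of 7 genes were called (0% of all genes), and 0 of 7 had an unadjusted p under 0.05 by limma (3.04% of all genes). Ccnd2, which growth factors and Myc induce, had its highest group mean here, with 28733 and 23822 units in libraries 10 and 22 against 26325, 19911 and 17209 in untreated libraries 8, 20 and 32. The groups overlapped through library 8. The log2 difference was 0.33 (SE 0.21, limma adjusted p = 1), and 0.50 without library 8 (SE 0.16, unadjusted p = 0.0225, limma adjusted p = 0.971). In the fit without library 8, 688 of 16021 tested genes had an unadjusted p under 0.05 by limma. Cdkn1a had 10945 and 8961 units (log2 difference -0.38, SE 0.26), and without library 8 the difference was -0.12 (SE 0.13). The largest log2 differences were those of Cdkn2d (0.44, SE 0.52) and Cdkn2c (0.40, SE 0.36). Without library 8 they were -0.12 (SE 0.21) and 0.02 (SE 0.18). Y27 and blebbistatin did not separate: 0 of 7 genes were called (0% of all genes) and 0 of 7 had an unadjusted p under 0.05 by limma (2.32% of all genes). The log2 differences between the inhibitors ran from -0.20 for Ccnd2 (95% interval -0.70 to 0.30) to 0.17 for Cdkn1a (-0.45 to 0.78).

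Ordered by mean, the 6 groups of each gene formed a row in which nearly all neighbours overlapped in their libraries, 34 of 35 neighbouring pairs over the 7 genes. The exception was Cdkn1b between KDEL on 308 kPa (2102 ± 59.9, SD, n = 3) and SUN1L on 1 kPa (1760 ± 143, n = 3). The share of overlapping neighbours over all genes is not given here, so this count describes the order only. Groups that are not neighbours could be separate, as SUN1L and KDEL cells on 1 kPa were in Cdkn1a, Cdkn2c and Cdkn2d. Cdkn1b was highest with Y27 (2493 ± 512) and lowest in SUN1L cells on 308 kPa (1708 ± 176). Cdkn1a ran from 19242 ± 7226 in SUN1L cells on 1 kPa to 9953 ± 1403 with blebbistatin (n = 2), and Cdkn2c from 2360 ± 212 with Y27 to 1246 ± 680 in SUN1L cells on 1 kPa. Cdkn2d ran from 431 ± 51.9 in KDEL cells on 1 kPa to 239.9 ± 111 in SUN1L cells on 1 kPa. Ccnd2 ran from 26278 ± 3473 with blebbistatin to 18028 ± 1179 in SUN1L cells on 1 kPa. Ccnd1 (13720 ± 5068 to 15727 ± 6762) and Ccnd3 (2533 ± 813 to 3088 ± 202) had the flattest rows, with 1.15-fold and 1.22-fold between the highest and lowest group mean.

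Libraries 3, 7 and 8 were set beside the other 2 libraries of their own groups, as values with no test. Ccnd1, the cyclin that mitogens and adhesion induce, had 9636 units in library 3 against 16134 and 20013 in its group. It had 8789 in library 7 against 16093 and 22298, and 9097 in library 8 against 12924 and 19139. All 3 were below both of their group mates, at 0.536, 0.464 and 0.578 of the mates' geometric mean. Ccnd3, the most widely expressed of the family, was also below both in each case, with 1847, 1534 and 1686 units or 0.522, 0.475 and 0.574 of the mates.

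Ccnd2 went the other way beside these group mates. It had 18824, 21210 and 26325 units in libraries 3, 7 and 8, above both mates in each group but by little in library 3 (18586 and 16674 in the mates) and most in library 8 (1.42 times the mates' geometric mean). The D-type cyclins thus did not move as a block against these mates, since Ccnd1 and Ccnd3 were low where Ccnd2 was not. The other 3 libraries of the first run had 21357 to 28733 units of Ccnd2, so beside them Ccnd2 was not raised. They had 9894 to 13974 units of Ccnd1, little above library 3 at the low end, and 2560 to 2996 of Ccnd3.

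Cdkn1a was above both mates in all 3 libraries, at 1.72, 1.51 and 1.72 times their geometric mean. The mean log2(signal + 1) of 20 p53-arm genes was also higher there, 10.33 to 10.35 against 9.65 to 10.13 in the other 15 libraries, with Mdm2 at 16896, 18019 and 18560 units in libraries 3, 7 and 8. Cdkn2c was below both mates, at 0.323, 0.343 and 0.451 times their mean, and so was Cdkn2d, at 0.373, 0.356 and 0.313. The expressed INK4 inhibitors were therefore low where the G2/M genes were low, opposite to Cdkn1a. Cdkn1b stayed near its mates at 0.872, 1.09 and 0.985. The other libraries of the first run, KDEL cells of other groups, had 2447 to 2766 units of Cdkn1b. Beside them libraries 3, 7 and 8 were lower, with 1603, 1803 and 2081 units.

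**Figure D4:**
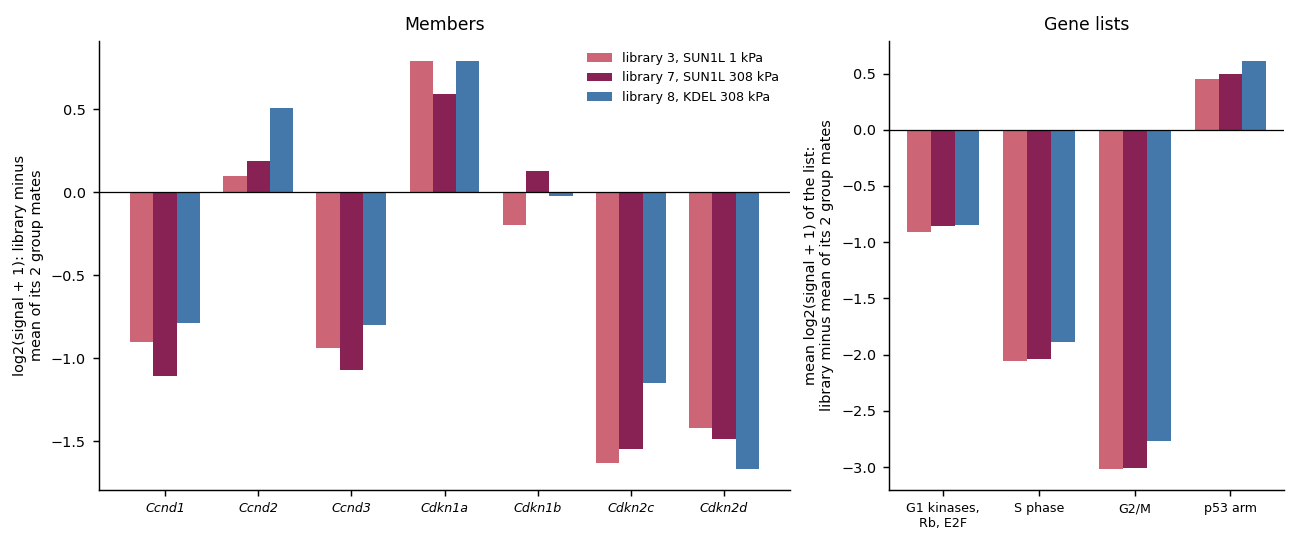
Log2 difference of libraries 3, 7 and 8 from the mean of the other 2 libraries of their own group, for the 7 genes (left) and for the mean of 4 gene lists (right). Bars start at 0; Cdkn2c and Cdkn2d lie between -1.15 and -1.67, Cdkn1a between 0.59 and 0.79 and the G2/M list between -2.77 and -3.02.

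Since libraries 3, 7 and 8 form a cluster of their own, the relation of each gene to the G2/M level was taken over the other 15 libraries alone, with p-values from 100000 permutations, two-sided and adjusted over 7 genes. For Cdkn2c, Pearson's r was 0.71 (permutation p = 0.00263, adjusted p = 0.0184) and Spearman's rho 0.68 (permutation p = 0.00713, adjusted p = 0.025). Without the 2 libraries farthest from the median G2/M level r was 0.53, and without library 34 it was 0.67 (permutation p = 0.00953), where the adjusted p of 0.0667 misses the threshold. Ccnd1 gave r = 0.59 (permutation p = 0.0202, adjusted p = 0.0601) and rho = 0.69 (permutation p = 0.00553, adjusted p = 0.025), and r = 0.68 without the 2 farthest libraries.

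These 15 libraries come from 6 groups and library 34 and from 3 runs of library numbers (3 to 12, 15 to 24 and 27 to 36). The level of Ccnd1 differed between the runs, with 9894 to 13974 units in the first, 12924 to 16595 in the second and 17031 to 23444 in the third, where the G2/M level also reached highest (11.78 to 12.25, against 11.56 to 11.92 and 11.48 to 12.01). With values centred within runs and libraries permuted within them, a choice made after the data were seen, Ccnd1 gave r = 0.14 (permutation p = 0.642, adjusted p = 0.678), so its relation did not hold within runs. Cdkn2c gave r = 0.79 (permutation p = 0.00074, adjusted p = 0.00518) and Cdkn2d r = 0.75 (permutation p = 0.0028, adjusted p = 0.0098). These permutations did not keep libraries within their groups, and neither did those over all 15 libraries. Of the 15, the libraries of the first run were all KDEL cells, so centring on runs did not remove differences between groups. Such differences, as between SUN1L and KDEL cells, can enter these r and p-values, and a relation within groups was not tested.

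Over the 15 libraries without regard to runs, Cdkn2d gave r = 0.51 (permutation p = 0.0539, adjusted p = 0.0943) and rho = 0.41 (permutation p = 0.127, adjusted p = 0.223), and r = 0.22 without the 2 farthest libraries. Cdkn1a gave r = -0.56 (permutation p = 0.0258, adjusted p = 0.0601) and rho = -0.38 (permutation p = 0.163, adjusted p = 0.228), r = -0.45 without the farthest libraries and r = -0.55 within runs (permutation p = 0.0481, adjusted p = 0.112). For Ccnd2, Ccnd3 and Cdkn1b r was -0.38, 0.37 and 0.19, with adjusted permutation p-values of 0.208, 0.208 and 0.504.

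**Figure D5:**
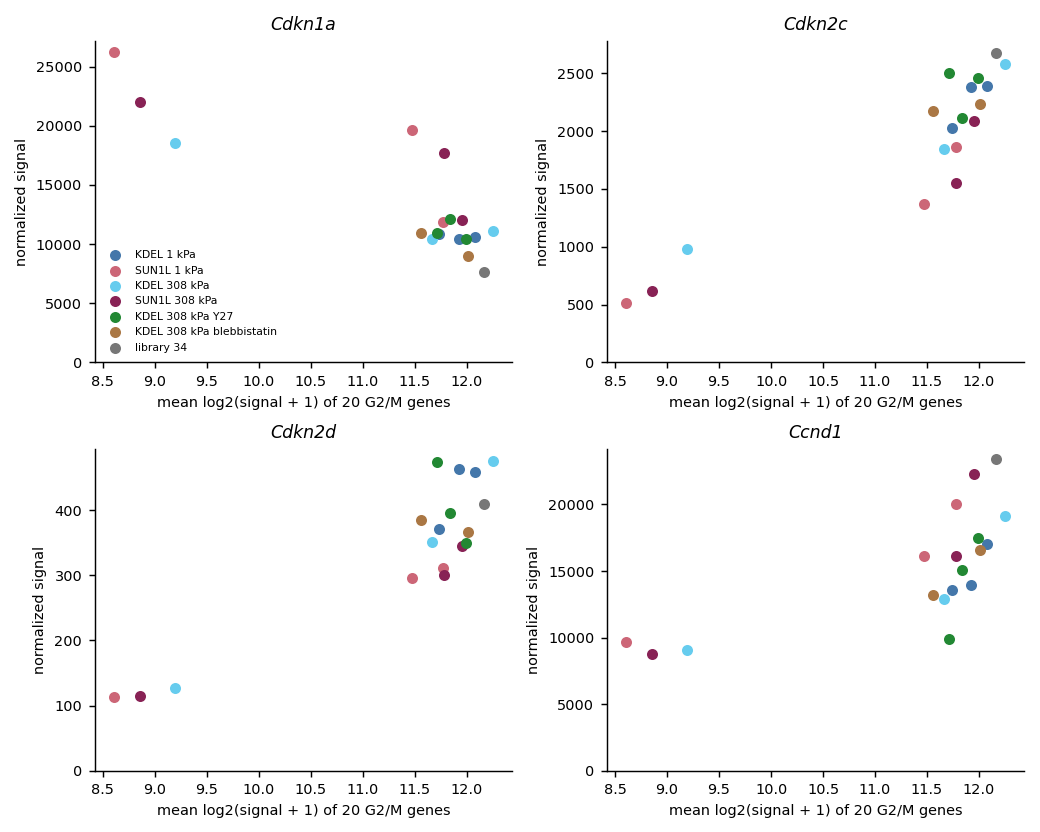
Normalized signal (vertical axes, from 0) of Cdkn1a, Cdkn2c, Cdkn2d and Ccnd1 against the mean log2(signal + 1) of 20 G2/M genes in each of the 18 libraries, coloured by group. Libraries 3, 7 and 8 lie apart at the left, at 8.60 to 9.19, with high Cdkn1a and low Cdkn2c, Cdkn2d and Ccnd1.

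Among themselves, Cdkn2c and Cdkn2d had r = 0.83 over these 15 libraries, Cdkn1a and Cdkn2c r = -0.84, and Ccnd1 and Ccnd3 r = 0.71, whereas Ccnd2 ran against Ccnd3 with r = -0.70. These are descriptions over libraries that share groups and runs and include library 34. Of 8010 genes at or above the median level, the one most like Cdkn2c over all 18 libraries was Tipin (r = 0.986; 0.904 in the 15), a partner of the replication fork, followed by Fancl (0.978) and Tmpo (0.977). Ccnd3 was most like Smarca4 (0.972), Ccnd1 most like Cacnb3 (0.958), Cdkn1a most like Fam212b (0.947), Ccnd2 most like Arhgap29 (0.927) and Cdkn1b most like Eps15 (0.897). Cdkn2d lies below the median level and was not ranked.

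The rest of the pathway was read from lists of the genes that act with these, and no listed gene was called in any of the 8 comparisons. Of 22 tested G1 kinases, cyclins E, pocket proteins and E2F factors, 20 had a lower mean in SUN1L than in KDEL cells on 1 kPa, with a median log2 difference of -0.33 against -0.01 over all genes, and 0 were at an unadjusted p under 0.05. On 308 kPa 20 of 22 were lower with a median of -0.11. Ccne1, cyclin E1, had 428, 2043 and 2206 units in the SUN1L libraries on 1 kPa and 2179, 1972 and 2483 in the KDEL libraries, so that library 3 alone was low. All 20 S phase genes (median -0.88) and all 20 G2/M genes (median -1.30) had a lower mean in SUN1L cells on 1 kPa, where 1 of the SUN1L libraries is library 3. Without libraries 3, 7 and 8 these medians were -0.17 for S phase genes (19 of 20 lower), -0.31 for G2/M genes (20 of 20) and -0.12 for the G1 list (20 of 22).

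Of 19 tested genes of the p53 arm, 16 had a higher mean in SUN1L cells on 1 kPa (median 0.28) and 14 on 308 kPa (median 0.11). Without libraries 3, 7 and 8 these were 12 (median 0.06) and 13 (median 0.10). On 1 kPa Phlda3, a p53-induced inhibitor of Akt, was the 1 gene of this list at an unadjusted p under 0.05 (log2 difference 0.28, limma adjusted p = 0.93). The 15 genes that turn over cyclin D, p21 and p27 had medians of -0.09 on 1 kPa and -0.04 on 308 kPa. Without libraries 3, 7 and 8 these medians were -0.08 and -0.05. On 1 kPa they ran from -0.87 for Dtl, which directs p21 to destruction in S phase, to 0.32 for Ambra1, which directs D-type cyclins to theirs, and on 308 kPa from -0.20 for Fbxo31 to 0.13 for Fbxw7. Dtl on 1 kPa had 654, 3403 and 3166 units in SUN1L libraries 3, 15 and 27. The KDEL libraries had 3923, 3308 and 3340, so that library 3 alone was low in Dtl. Ambra1 had 1831, 1394 and 1456 units against 1312, 1260 and 1153, with library 3 the highest. The 22 upstream regulators had medians of 0.03 and -0.01. With Y27, the regulator Smad3 had a log2 difference of -0.71 (unadjusted p = 0.00435, limma adjusted p = 0.793), 1 of 4 among the 22 regulators at an unadjusted p under 0.05, beside the 5.8% of all genes. Smad3 carries TGF-β signals that are known to induce Cdkn2b and Cdkn1a, of which Cdkn2b was at 1 throughout.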

How the data were processed

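Polyadenylated RNA of 18 libraries was sequenced as paired-end reads. The authors aligned the reads with TopHat, quantified them in AvadisNGS, normalized them by the trimmed mean of M-values and deposited a linear signal for each gene, not divided by length and never below 1. The methods name mm9, but gene positions in the table are those of GRCm38. Between 44.4% and 49.9% of low values were whole multiples of 1 read pair (within 0.01), so reads were not recovered and depth is an estimate.

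From the deposited signal, log2(signal + 1) was modelled in limma 3.58.1 (R 4.3.3) with a trend, over the 16021 genes above 1 in at least 3 libraries. Construct, rigidity and their interaction used 12 libraries, and the inhibitors 8. Calls needed 2-fold and a Benjamini-Hochberg adjusted p under 0.05, or a Bonferroni p under 0.05 for the interaction. Tests were two-sided, and the model was tested on simulated data. Fold changes on this scale understate those of low genes. Exon lengths are those of the GENCODE annotation of NCBIM37. The genes named are the 10 members, the list genes with the smallest p and the genes most like each member; Ccne1, Mdm2, Dtl, the neighbours of Cdkn2a and the marker genes printed were chosen after their values were seen. Members and lists were chosen with earlier results of these data known. Alternatives were other filters (none, or a mean of 10), pseudocounts (8 or 0.1), quantile normalization, 1 fit of all libraries, no trend, no fold limit, a term for runs of library numbers, fewer libraries (each left out, or 3, 7 and 8), and library 34 in either inhibitor group. The column of library 34 is numbered 35 and was matched by its heading.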

Additional observations from a re-analysis of the deposited data

Results flagged for a closer look

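Library 34, whose labels name an empty vector and both Y27 and blebbistatin, entered no comparison. Its value for Ccnd1 was 23444 units, for Cdkn2c 2673 and for Cdkn1b 2367, each above all 3 libraries of untreated KDEL cells on 308 kPa (up to 19139, 2579 and 2170). Its Cdkn1a value of 7663 units was below all of these and was the lowest of the 18 libraries, and Ccnd1 and Cdkn2c were the highest. Ccnd2 (19582), Ccnd3 (3198) and Cdkn2d (409) of library 34 were within the range of the untreated libraries. The share of all genes outside that range of 3 libraries is not given here, so these places are values only. With 1 library and another vector, the differences of library 34 were not tested. Groups of 2 or 3 libraries are too small for a test of outlying samples.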

How the results depend on the processing

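No member was called in any of the 8 comparisons, and 0 of 1190 values under the alternatives were called. Over 56 pairs of a member and a comparison, 34 changed sign in at least 1 alternative, which were 82 of the 1190 values. For SUN1L against KDEL on 1 kPa, Cdkn1a stayed between 0.52 and 1.10 on the log2 scale (lowest adjusted p = 0.244), Cdkn2c between -1.43 and -0.50 (0.273), Cdkn2d between -1.23 and -0.50 (0.327) and Cdkn1b between -0.44 and -0.23 (0.341), all with a limma adjusted p over 0.05. On 308 kPa Cdkn1b stayed between -0.35 and -0.22. The members at an unadjusted p under 0.05 on 1 kPa, 2 in the fit reported, were 0 to 3 with 1 library left out (0 without library 3, 4, 15 or 28) and 1 to 4 under the other alternatives; on 308 kPa they were 0 or 1. The 4 came from a block on runs of library numbers (3 to 12, 15 to 24 and 27 to 36), which the labels do not call batches: Cdkn1a, Cdkn1b, Cdkn2c and Cdkn2d, with limma adjusted p-values of 0.244 to 0.341. The share of all genes at an unadjusted p under 0.05 with this block is not given here. No paired analysis was possible because the labels give no replicate numbers and do not pair the libraries of a run; the block on runs and the differences within them stand in its place. The 6 differences of SUN1L from KDEL within runs, 3 on each rigidity, ran from 0.12 to 1.34 for Cdkn1a, -0.61 to -0.03 for Cdkn1b, -2.21 to -0.25 for Cdkn2c and -2.03 to -0.16 for Cdkn2d. Within runs, an alternative added after the data were seen, the r with the G2/M level turned to 0.13 for Ccnd2 and -0.27 for Ccnd3; without library 34 no sign turned. Depth, and any reads lost to filters or annotation, limit Cdkn1c, Cdkn2a and Cdkn2b, which were at the lowest value. The rest are limited by 2 or 3 libraries a group.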
